A study of Mus musculus with 2 samples.

Results

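The MC38-like tumor cells are 109 cell barcodes of the MC38 library, out of 17338 barcodes kept there (0.629%, exact 95% interval 0.516 to 0.758%) and 25424 kept in both libraries together. They were chosen by a gate on raw counts of unique molecular identifiers (UMIs, one per captured RNA molecule): at least 200 genes, at most 20% mitochondrial UMIs, at least 2 UMIs of Tnnt2, Hmga2 and Krt14 together, and no UMI of Ptprc or Csf1r. Tnnt2 encodes cardiac troponin T, Hmga2 an architectural chromatin protein of embryonic cells, and Krt14 a basal keratin. Ptprc (CD45) is present on nearly all blood cells apart from red cells, and Csf1r on monocytes and macrophages. Because these 5 genes selected the barcodes, their values are given below as a description. The same gate found 0 of 8086 kept barcodes in the control library (exact 95% upper limit 0.0456%). Only 637 of those lacked Ptprc and Csf1r and could pass the gate, against 7103 in the MC38 library. A count of 0 in 637 allows a share of up to 0.577% of such barcodes, so the control is a limited background. On that basis the MC38 library had 109 of 7103, while the 0.629% above is a share of all kept barcodes. Of all control barcodes 56.7% were kept, against 87.5% in the MC38 library.

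MC38 is a C57BL/6 mouse colon adenocarcinoma line, and injection into the spleen seeds the liver through the portal vein. Both groups were C57BL/6 mice, and each was sequenced as 1 droplet library (10x 5′ chemistry) of liver mononuclear cells pooled from 3 mice and collected on day 14. The MC38 group received 500000 MC38 cells into the spleen, which was then removed, and the control group received PBS by the same route and is labelled as having no tumor. A subcutaneous injection of 3000000 MC38 cells and the removal of the spleen are written in a protocol text that both groups share, so the controls may carry them too. Hepatocytes had been depleted by slow spins and the cells taken from a Ficoll layer, so the share of tumor cells describes that fraction and not the liver. With 1 library per group there is no replicate, no test between groups was possible, and all intervals cover counting error only. Of the barcode sequences, 63 occurred in both libraries, and 0 of the 109 gated barcodes was among them.

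Carcinoma lines kept in culture or as grafts can lose epithelial keratins and cell junctions and take up a mesenchymal state, in which they make extracellular matrix, contractile tropomyosins and transcription factors such as Twist and Prrx proteins. Tumor cells are seen by T cells through peptides on MHC class I, whose loading genes are raised by interferon. HMGA2 and the IGF2BP proteins are oncofetal: they are made in embryos, held down later by let-7 microRNAs, and made again in many tumors.

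The 4 markers were described first. In the gated barcodes Tnnt2 (ENSMUSG00000026414, chromosome 1, 135836354 to 135852260 of GRCm38, plus strand) had 245 UMIs, with 0, 2 and 18 UMIs as the lowest, median and highest value per barcode. Hmga2 (ENSMUSG00000056758, chromosome 10, 120361275 to 120476469, minus strand) had 130 UMIs, and per barcode 0, 1 and 11. Krt14 (ENSMUSG00000045545, chromosome 11, 100203162 to 100207548, minus strand) had 120 UMIs, and per barcode 0, 1 and 9. Bgn, the matrix proteoglycan biglycan, is the marker that the gate did not use (ENSMUSG00000031375, chromosome X, 73483602 to 73495933, plus strand). It had 218 UMIs in 50 of the 109 barcodes, with 0, 0 and 20 UMIs per barcode, so that most barcodes held none of it. All 4 genes are protein coding.

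The promoters of 3 of these genes and of Prrx1, the gene most tied to the gate (below), are shown because their transcripts occurred in the same barcodes. Each is the 250 bases before the RefSeq start (GRCm38.p6), written 5′ to 3′ along the gene's strand, with matches to the MCAT element CATTCC and the GC box GGGCGG in capitals, on either strand.
Tnnt2, chr1:135836084-135836333, plus strand: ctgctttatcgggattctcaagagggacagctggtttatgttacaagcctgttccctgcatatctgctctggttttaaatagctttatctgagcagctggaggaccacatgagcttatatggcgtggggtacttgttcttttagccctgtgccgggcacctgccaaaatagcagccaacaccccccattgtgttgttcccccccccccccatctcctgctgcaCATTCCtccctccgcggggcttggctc
Hmga2, chr10:120476470-120476719, minus strand: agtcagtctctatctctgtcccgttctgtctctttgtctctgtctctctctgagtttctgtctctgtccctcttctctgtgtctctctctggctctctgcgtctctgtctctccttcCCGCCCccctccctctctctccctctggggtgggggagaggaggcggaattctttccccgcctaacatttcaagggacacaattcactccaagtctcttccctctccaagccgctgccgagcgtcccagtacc
Bgn, chrX:73483351-73483600, plus strand: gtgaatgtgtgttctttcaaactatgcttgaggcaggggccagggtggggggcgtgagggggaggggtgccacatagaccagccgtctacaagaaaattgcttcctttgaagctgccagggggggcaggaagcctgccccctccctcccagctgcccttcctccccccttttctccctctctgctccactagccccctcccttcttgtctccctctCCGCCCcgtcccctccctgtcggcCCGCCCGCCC
Prrx1, chr1:163313651-163313900, minus strand: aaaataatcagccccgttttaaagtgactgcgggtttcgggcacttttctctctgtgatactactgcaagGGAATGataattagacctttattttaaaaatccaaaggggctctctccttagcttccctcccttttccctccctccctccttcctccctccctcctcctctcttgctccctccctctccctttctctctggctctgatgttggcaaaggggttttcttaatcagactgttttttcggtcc
The MCAT element, the letters bound by TEAD factors in muscle genes, was at bases -27 to -22 of Tnnt2 and at -180 to -175 of Prrx1 on the opposite strand. It was present in 12.6% of all 32817 such windows. The GC box was found once in Hmga2 and at 3 places in Bgn, of which 2 overlap, against 32.7% of all windows. A TATA box (TATAAA) and an AP-1 site (TGANTCA) had no match in these 4 windows and were present in 12.4% and 6.75% of all windows. These are matches of letters only.

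**Figure D1:**
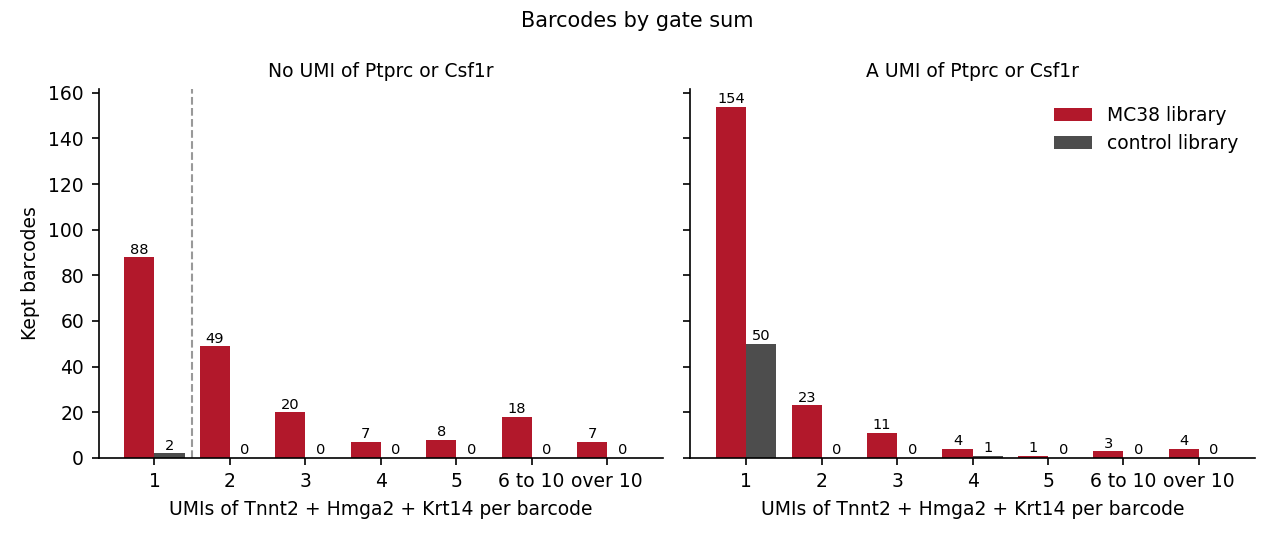
Kept barcodes (vertical axis) by their summed UMIs of Tnnt2, Hmga2 and Krt14 (horizontal axis), without (left) and with (right) a UMI of Ptprc or Csf1r, in the MC38 (red) and control (grey) library. Numbers above the bars are counts, the dashed line is the gate, and to its right the control library has 0 barcodes in the left panel and the MC38 library 109.

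Sums of the gate genes spread over a wide range with no gap at the threshold. Among kept MC38 barcodes without Ptprc and Csf1r, 6906 had a sum of 0, 88 a sum of 1 (just outside), 49 a sum of 2 (just inside), 35 a sum of 3 to 5 and 25 a sum of 6 or more, up to 28. In the control library 635 such barcodes had a sum of 0 and 2 a sum of 1. A further 46 MC38 barcodes reached a sum of 2 but held a UMI of Ptprc or Csf1r, against 1 in the control library. Of the 109, 24 had all 3 gate genes, 53 had a pair, and 19, 7 and 6 had only Tnnt2, only Hmga2 or only Krt14, which describes what the gate let in.

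When the gate was built from 2 genes, the third took no part in choosing the barcodes. Tnnt2 had a UMI in 37 of 57 barcodes gated on Hmga2 and Krt14 (64.9%, exact 95% interval 51.1 to 77.1%), against 0.833% of 6964 barcodes with none of those 2 genes. Hmga2 had a UMI in 34 of 86 barcodes gated on Tnnt2 and Krt14 (39.5%, 29.2 to 50.7%), against 0.476% of 6939. Krt14 had a UMI in 35 of 80 barcodes gated on Tnnt2 and Hmga2 (43.8%, 32.7 to 55.3%), against 0.418% of 6935. Each of the 3 genes was more frequent beside the other 2 than without them. The 3 genes had been chosen with earlier results of these data known, so this describes the gate and is no separate support. The gated barcodes were deeper (median 3176, 2770 and 2535 UMIs) than the compared ones (median 1369, 1368 and 1367 UMIs).

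Free RNA from broken cells gives stray UMIs in every droplet, so the markers were also counted in lymphocytes, which should lack them. In 1212 T cell barcodes of the MC38 library (median 8177 UMIs), Tnnt2 had a UMI in 0.743%, Hmga2 in 0.825%, Krt14 in 0.495% and Bgn in 2.64%. In 2491 B cell barcodes (median 3204 UMIs) the shares were 0.442%, 0.482%, 0.281% and 0.803%. Both sets took any gate sum and kept doublets, so these shares can hold joined barcodes as well as stray RNA. Of the 40 Hmga2 UMIs in the T cell barcodes, 31 were in 1 barcode. Gated barcodes were not left out, and 1 with 5 Trac UMIs and 1 with 6 Cd79a UMIs met the T and B cell rules. The 109 gated barcodes, with a median of 2475 UMIs, had a Bgn UMI in 45.9% (36.3 to 55.7%). In the control library Bgn had 62 UMIs in 53 of 8086 barcodes (0.655%), Hmga2 35 UMIs, Tnnt2 21 UMIs and Krt14 0. Hmga2 had a UMI in 0.433% of these control barcodes (median 6894 UMIs) and Tnnt2 in 0.223%. The Hmga2 share was thus near the 0.482% of the MC38 B cell barcodes.

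The gated barcodes were of moderate depth and uneven. UMIs per barcode ran from 533 over a median of 2475 to 34665, genes from 294 over 888 to 4487, and the mitochondrial share from 0.252% over 5.02% to 19.5%. The deepest barcode supplied 8.59% of the 403734 UMIs of the set and the 10 deepest supplied 37.1%. The kept barcodes had a median of 3354 UMIs in the MC38 library and 6894 in the control library, with total counts of 114421875 and 91617457 UMIs before filtering. Ribosomal protein genes took a median of 34.4% of UMIs in the gated barcodes against 19.5% in the other kept MC38 barcodes, so every other gene of the gated set is measured against a total that holds more ribosomal protein messages. Of the gated barcodes, 5 were called doublets.

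Without the gate genes, Ptprc and Csf1r, clustering of the MC38 library gave 31 clusters, of which cluster 19 took in 97 of the 109 gated barcodes (89.0%, 81.6 to 94.2%). That cluster held 242 barcodes, and its 10 leading genes were Prrx1, Rhox5, Cpe, Tnnt2, Krt14, Twist2, Col6a3, Hmga2, Map1b and Aebp1. The ranking had a CPM floor and left out ribosomal, mitochondrial, hemoglobin, antigen receptor and unnamed-model genes, but not the gate genes. Gated barcodes made up 40.1% of the cluster, so the gate partly set the place of Tnnt2, Krt14 and Hmga2 in it. The other 12 gated barcodes were spread over 7 clusters, among them 3 led by hepatocyte or gut genes, which held 8.

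To compare genes, UMIs were summed over the 109 barcodes and over the other 17229 kept MC38 barcodes, most of which are blood cells, and divided by each total to give CPM, the UMIs of a gene per 1e6 UMIs of the set. A gene was counted as higher or lower where the ratio was at least 4-fold and its 95% interval excluded no difference, among genes with at least 10 UMIs in both sets together. Of 15564 genes, 908 (5.83%) were higher and 1500 (9.64%) lower in the gated barcodes. The median log2 ratio over the 918 genes with at least 50 UMIs in both sets was 0.56, and with the ratios centred on it the counts were 656 higher and 2455 lower. With ribosomal protein and mitochondrial genes left out of the total they were 1091 and 1117.

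The 25 leading genes, ranked by the lower end of the interval, included genes of matrix, caveolae and the cytoskeleton. They were chosen from this contrast, so that all 25 being higher is no result. Bgn was at 540 CPM in the gated and 3.98 CPM in the other barcodes, a log2 ratio of 7.08 (6.84 to 7.32). Sparc, a matricellular protein that binds collagen, was at 416 and 10.7 CPM, and Serpinh1, the collagen chaperone of the endoplasmic reticulum, at 201 and 3.03 CPM. Timp1, an inhibitor of matrix proteases, was at 139 and 4.56 CPM. Of the 81 Serpinh1 UMIs, 27 were in 1 barcode. Coat proteins of caveolae, small pits of the plasma membrane, were among the genes with the largest ratios. Prkcdbp (cavin-3) was at 173 and 1.46 CPM, a log2 ratio of 6.89 (6.46 to 7.30), and Ptrf (cavin-1) at 163 and 2.25 CPM, a log2 ratio of 6.18. Cav1, the caveolin these coats bind, was in the mesenchymal list and was higher as well, at 81.7 and 1.82 CPM.

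Actin and microtubule genes followed. The tropomyosins Tpm2 and Tpm1 were at 240 and 384 CPM in the gated barcodes, against 3.91 and 42.0 CPM in the others. Tubb3, a tubulin best known from neurons, was at 119 against 1.95 CPM, and Dpysl3, which binds tubulin in growing axons, at 102 against 1.74 CPM. Wwtr1, which encodes the TEAD partner TAZ, was at 114 against 3.65 CPM and was spread over 35 barcodes with at most 3 UMIs in any. Genes of amino acid and nucleotide supply were also among the 25. Asns, which makes asparagine, was at 181 against 4.74 CPM, Phgdh, the entry enzyme of serine synthesis, at 253 against 22.3 CPM, and Dut, which removes dUTP, at 399 against 37.5 CPM. Upp1, a uridine phosphorylase, was at 166 against 8.67 CPM. Lgals1 (galectin-1) had a UMI in 107 of 109 barcodes, at 4944 against 567 CPM, a log2 ratio of 3.12 (3.06 to 3.19). Thinned to 1000 UMIs each, 95.8% of the 95 gated barcodes deep enough still had a UMI of Lgals1, against 26.3% for Bgn. The remaining genes were Tm4sf1, Rab34, Hmga1, Serpinb6a, Igfbp4, Maged1, Ngfrap1, Psip1 and Nedd4.

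**Figure D2:**
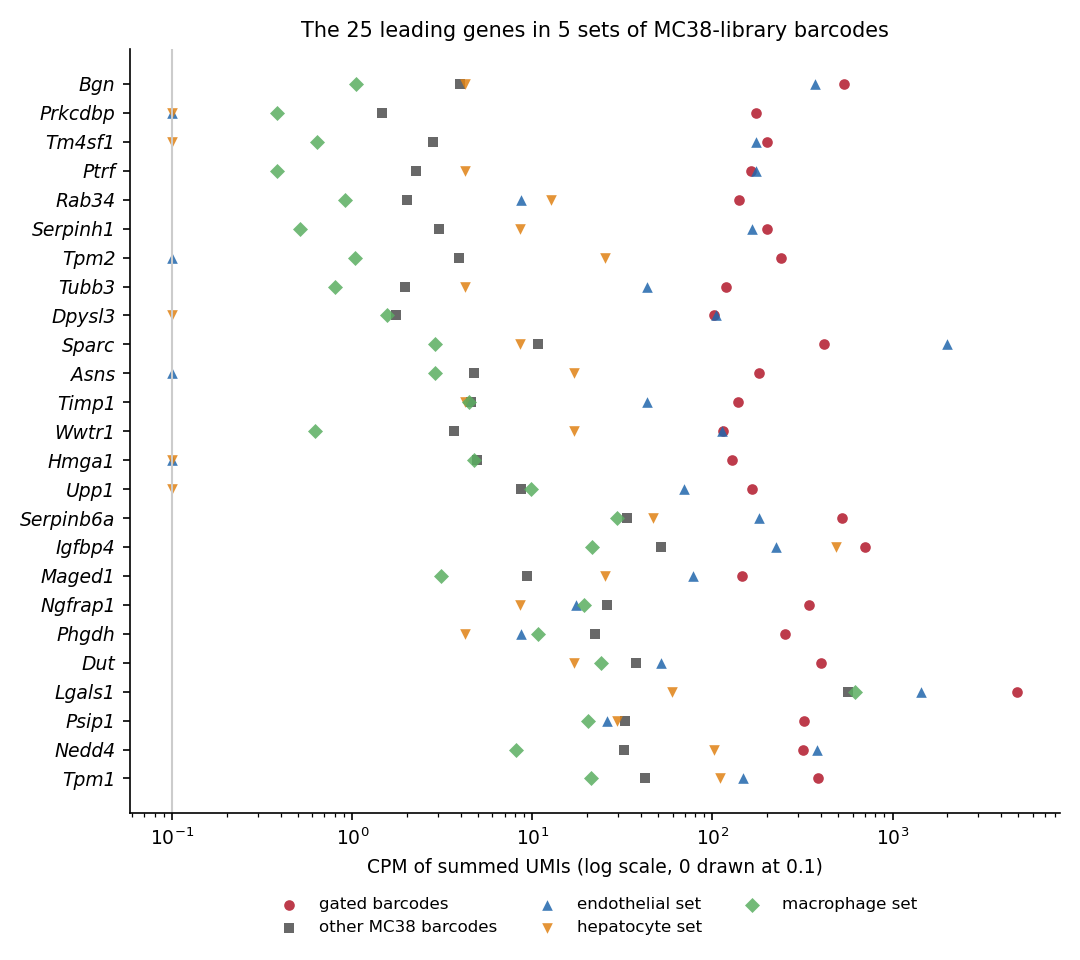
CPM of summed UMIs (horizontal axis, log scale, with 0 drawn at 0.1) of the 25 leading genes in the gated barcodes (red circles), the other MC38 barcodes (grey squares), and the endothelial (blue), hepatocyte (orange) and macrophage (green) sets. Each point is a sum over barcodes of 1 library; the red circles lie furthest right except for Ptrf, Dpysl3, Sparc and Nedd4, where the endothelial set is higher (Sparc at 416 against 1995 CPM).

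The same genes were set against 3 smaller sets with no UMI of the gate genes: 42 endothelial barcodes (median 2331 UMIs), 178 hepatocyte barcodes (median 913 UMIs) and 4868 macrophage barcodes (median 11882 UMIs). These barcodes are also part of the other barcodes above, and the 25 genes had been picked for high values in the gated set, so the counts describe the genes and nothing is read from them against the share of all genes. Against the endothelial set, 9 of the 25 were higher and 1 lower, where 2.47% of 5421 genes were higher and 15.4% lower. Against the hepatocyte set 22 of 25 were higher and 0 lower, with 11% of 5584 genes higher and 14.2% lower. All 25 were higher than in the macrophage set, with 7.87% of 13983 genes higher and 10.9% lower, but that set holds 62813238 of the 107251777 UMIs of the other barcodes, so the choice of the genes largely fixed this. The fewest differences were thus from the endothelial set, which is also the smallest, with 115290 UMIs. The 9 genes were Prkcdbp, Rab34, Tpm2, Asns, Hmga1, Ngfrap1, Phgdh, Dut and Psip1, and Prkcdbp, Tpm2, Asns and Hmga1 had 0 UMIs in it, which puts their ratios at no less than 2.74, 3.21, 2.80 and 2.31 on the log2 scale with a floor of 3 counts. Sparc was lower in the gated barcodes than in the endothelial set (log2 ratio -2.26), and Bgn was at 540 against 373 CPM, a log2 ratio of 0.53 (0.06 to 1.04).

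The 5 genes most tied to the gate were Prrx1, Aldh3a1, Crabp1, Hoxc10 and Il11. They were ranked by the lower end of the interval of the ratio to the 16941 kept barcodes with a gate sum of 0. Prrx1, a homeobox factor of limb and craniofacial mesenchyme, had 39 UMIs in 27 gated barcodes, 96.6 CPM, against 8 UMIs (0.0766 CPM) in the sum-0 barcodes. Crabp1, a retinoic acid binding protein, had 30 UMIs in 25 barcodes, 74.3 against 0.124 CPM. Hoxc10, a posterior homeobox gene, had 11 UMIs in 6 barcodes, and Aldh3a1, an aldehyde dehydrogenase, 13 in 6. Il11, a cytokine of the IL-6 family, had 14 UMIs in 2 barcodes, 13 of them in 1. Prrx1 and Crabp1 were thus spread over many barcodes and the other 3 genes were found in few.

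The leading genes were also followed over the gate sum, though they were picked with the gated barcodes in view. In barcodes without Ptprc and Csf1r, the 25 genes together were at 948 CPM where the sum was 0, at 5661 CPM where it was 1, at 10202 CPM where it was 2, at 10181 CPM for 3 to 5 and at 12505 CPM for 6 or more. Bgn was at 10.7, 138, 384, 670 and 555 CPM in the same order. The barcodes just outside the gate lay between the sum-0 barcodes and the gated ones. Hepatocyte markers ran the other way, at 19516, 10316, 3341, 2365 and 270 CPM. Median depths were 1366, 1730, 1771, 2632 and 5047 UMIs.

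**Figure D3:**
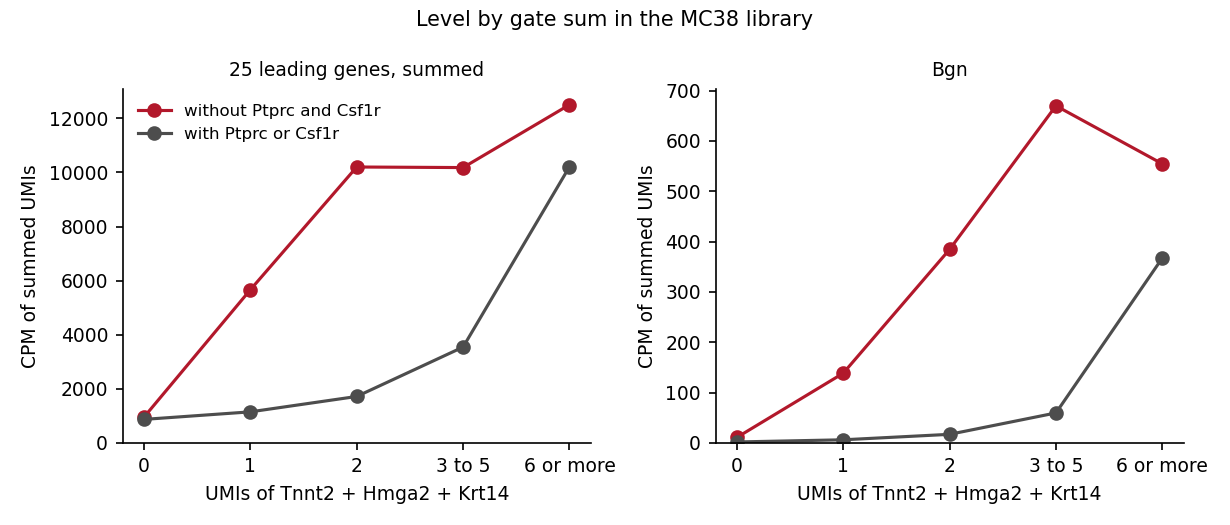
CPM of summed UMIs (vertical axis) of the 25 leading genes together (left) and of Bgn (right) by the summed UMIs of Tnnt2, Hmga2 and Krt14 (horizontal axis), in MC38 barcodes without (red) and with (grey) a UMI of Ptprc or Csf1r. The red line reaches 10202 CPM at a sum of 2, where the grey line is at 1715 CPM, and the grey line comes to 10209 CPM only at 6 or more.

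Epithelial and gut genes were hardly present. Of 22 keratin and junction genes 15 were at 0 UMIs in the gated barcodes, among them Krt19, Krt20, Krt7, Krt5 and Cdh1 (E-cadherin), and 0 of the 16 compared were higher or lower. Krt8 and Krt18, the keratin pair of simple epithelia, had 20 UMIs in 10 barcodes and 21 in 9, at log2 ratios of -1.07 and -0.85. A single barcode held 8 of the 20 Krt8 UMIs, and a single barcode 10 of the 21 Krt18 UMIs. In the hepatocyte set they were at 1161 and 1166 CPM. Only these 2 listed genes had a mean of at least 10 CPM, with a median log2 ratio of -0.96. Without gated barcodes rich in hepatocyte or hemoglobin RNA it was -3.16. Epcam had 1 UMI. Of 18 intestinal genes 12 were at 0, including Cdx2, Vil1, Lgr5 and Muc2, and 1 of 12 compared was higher. That was Sox9, a transcription factor of crypt and bile duct cells, with 60 UMIs in 21 barcodes (149 against 7.78 CPM). A count of 0 in 403734 UMIs allows up to 7.43 CPM, so low expression cannot be told from none. Krt14, which the gate selected on, was the listed keratin with more than 21 UMIs.

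Many mesenchymal and matrix genes were higher. Beside each list stands the median log2 ratio of its members with a mean of at least 10 CPM over both sets. The median of all 7882 such genes was -0.46. Here and below, list counts stand beside 5.83% higher and 9.64% lower of all genes. Against the endothelial set these shares were 2.47% and 15.4%. Of 20 mesenchymal genes, 8 were higher and 2 lower (median 2.04). The transcription factors Twist1 (29.7 against 0.457 CPM) and Snai2 (19.8 against 0.662 CPM) were among the 8, and Vim was at 3928 against 1889 CPM, below 4-fold. Fn1 (fibronectin) and Zeb2 were lower, at log2 ratios of -4.23 and -2.81, and both were abundant in the macrophage set. Of 31 matrix and protease genes, 16 were higher and 2 lower (median 3.90). Some of the 16 rested on few gated UMIs, such as Fbn1 (2), Tnc (5), Col3a1 (6) and Col4a2 (8). Besides Bgn, Mmp2, a gelatinase, was at 74.3 against 0.932 CPM, a log2 ratio of 6.32 (5.68 to 6.92), and Col6a3, outside the list, was among the genes leading cluster 19. Col1a1 had 1 UMI and Col1a2 8. Against the endothelial set the matrix list split, with 3 of 17 higher and 5 lower. Of 16 mesenchymal genes, 6 were higher than in that set and 0 lower, but these were largely other genes than the 8 above. They were Vim, Fn1, S100a4, S100a6, Tpm2 and Cav1, and only Tpm2 and Cav1 were also among the 8. Twist1 and Snai2 were neither higher nor lower than in the endothelial set.

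Genes of growth and division came next. Of 34 cell cycle genes, 25 were higher and 0 lower (median 2.45), while against the endothelial set 4 of 31 were higher and 0 lower (median 0.91). The replication helicase gene Mcm5 was at 186 CPM, a log2 ratio of 3.29 (2.94 to 3.62), the mitotic genes Cdc20 and Bub1 at 129 against 8.07 CPM and 39.6 against 2.69 CPM, and the topoisomerase gene Top2a at 181 against 42.4 CPM. Mki67 was at 66.9 against 42.6 CPM, a log2 ratio of 0.65 (0.05 to 1.19). At least 1 UMI of Mki67, Top2a, Cdk1, Ccnb1, Ccna2 or Birc5 was found in 65 of 109 barcodes (59.6%, 49.8 to 68.9%), against 11.1% of the other barcodes and 16.7% of the endothelial set. With each barcode thinned to 1000 UMIs, which left out 14 gated and 2585 other barcodes, the shares were 42.1% (32.0 to 52.7%) and 3.80%. In the endothelial set the thinned share was 11.4% (3.20 to 26.7%), of 35 barcodes. Of 16 genes of MYC and ribosome biogenesis, 7 were higher and 0 lower (median 2.36), and against the endothelial set 3 of 13 were higher and 1 lower. The nucleolar gene Npm1 was at 4218 against 636 CPM, Nop58 at 248 against 42.7 CPM, and Odc1, the entry enzyme of polyamine synthesis, at 438 against 66.1 CPM. Of the 177 Odc1 UMIs, 66 were in 1 barcode, and Npm1, Gapdh and Hsp90ab1 have near-identical processed copies in the genome, so their counts are less certain. Myc itself had 5 UMIs. Glycolysis and hypoxia genes were mostly below 4-fold, with 1 of 25 higher and 1 lower (median 0.58). Gapdh was at 4305 against 1831 CPM, and Slc2a1, a glucose transporter, at 19.8 against 39.2 CPM.

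Oncofetal and signalling genes were mixed. Of 8 oncofetal genes compared, 3 were higher and 0 lower, and Hmga2, left out as a gate gene, is not among them. Hmga1 was at 129 against 4.92 CPM in 31 barcodes, while Igf2bp1 had 5 UMIs in 5 barcodes, Igf2bp2 had 9 in 8, and Lin28b, Igf2 and H19 had 0. Of 16 MAPK target genes, 6 were higher and 1 lower (median 2.87), while against the endothelial set 0 of 8 were higher and 2 lower. Fosl1, a subunit of AP-1, was at 64.4 against 1.05 CPM, Etv4, an ETS factor, at 42.1 against 0.550 CPM and Dusp4, a phosphatase that turns ERK off, at 52.0 against 1.48 CPM. Its relative Dusp6 was lower (17.3 against 70.6 CPM), and Spry1, Spry2 and Spry4 had 0 UMIs. Of 12 Wnt targets, 1 was higher, Ccnd1 (cyclin D1), at 513 against 68.3 CPM, and 0 lower, and Axin2, Lgr5, Notum and Rnf43 had 0 UMIs. Of 18 genes of TGF-beta and YAP signalling 6 were higher and 5 lower, and against the endothelial set 1 of 12 was higher and 7 lower. Ankrd1, a target of YAP and TEAD, had 18 UMIs in 9 barcodes, 44.6 against 0.186 CPM, with 9 of the UMIs in 1 barcode. The ligand Tgfb1 was lower (39.6 against 331 CPM), and so was Tgfbi. Inhba had 21 UMIs in 6 barcodes and a log2 ratio of 3.61, which was -0.12 without the 10 deepest barcodes. Of 31 growth factor and adhesion receptors, 6 were higher and 3 lower, and against the endothelial set 2 of 14 were higher and 2 lower. The integrin chain Itgb4, of hemidesmosomes, was at 42.1 against 0.522 CPM in 13 barcodes, and Egfr and Erbb2 had 0 UMIs. Of 17 p53 targets 2 were higher (Phlda3, at 86.7 against 3.08 CPM, and Plk2) and 2 lower, and Cdkn1a (p21) was at 42.1 against 111 CPM.

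**Figure D4:**
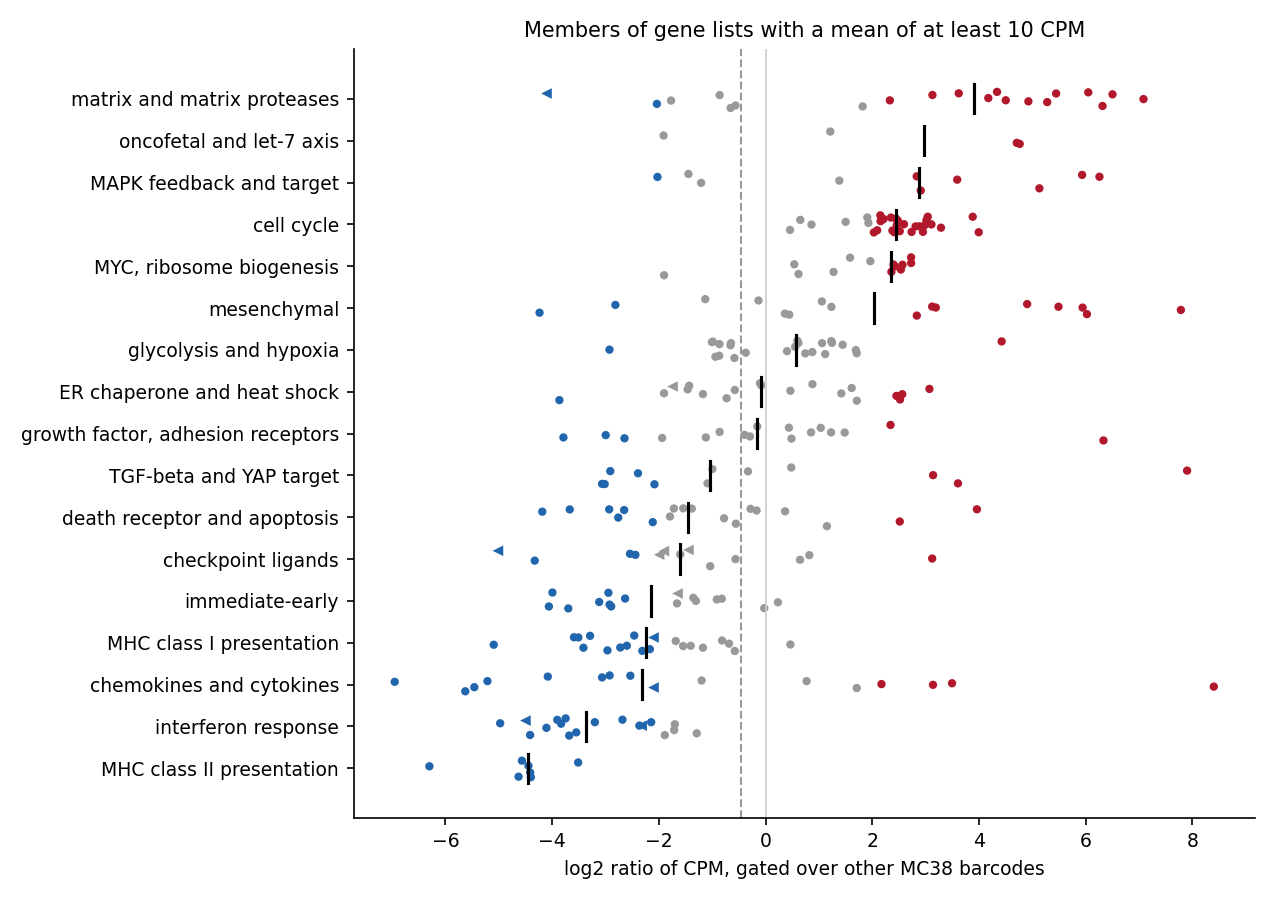
log2 ratio of CPM, gated over other MC38 barcodes (horizontal axis), for members of 17 lists (rows) with a mean of at least 10 CPM. Points are genes (red higher, blue lower, grey neither, triangles upper bounds of genes at 0 in the gated set), black bars list medians and the dashed line the median of all such genes, -0.46; the cell cycle bar is at 2.45 and that of MHC class II at -4.44.

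Antigen presentation was low against the library, which is mostly blood cells, and the gate removes barcodes with Ptprc or Csf1r, so that part of this contrast is set by the rule. Of 20 MHC class I genes, 12 were lower and 0 higher (median -2.24). The class I light chain gene B2m had 213 UMIs in 67 barcodes (528 against 928 CPM), H2-K1 147 UMIs in 36 and H2-D1 131 UMIs in 53, each below 4-fold. The peptide loading genes were lower by more: Tap1 at 19.8 against 154 CPM, Tapbp at 17.3 against 197 CPM and the immunoproteasome subunit Psmb8 at 79.3 against 523 CPM. Nlrc5, the class I transactivator, had 1 UMI and Tap2 0. Set against the endothelial barcodes, 3 of 15 were lower and 0 higher, and against the hepatocyte set 0 of 13 lower and 1 higher. Of all genes, 15.4% were lower and 2.47% higher than in the endothelial set, and 14.2% and 11% than in the hepatocyte set. No difference is read from these class I counts. Of 27 interferon response genes 14 were lower and 0 higher (median -3.37), and 10 were at 0 UMIs in the gated barcodes. The hepatocyte and endothelial sets also had more of them, with 4 of 6 lower in the gated barcodes in each comparison. All 7 MHC class II genes were lower (median -4.44). Cd74 had 76 UMIs in 24 barcodes, 44 of them in 1 barcode.

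Most genes that act on immune cells were neither higher nor lower, and their counts stand beside 5.83% higher and 9.64% lower of all genes. Of 18 checkpoint ligands and related genes, 1 was higher, Lgals1, and 4 lower, among them Cd47 (57.0 against 331 CPM), the signal that restrains phagocytes. Cd274 (PD-L1) had 0 UMIs in the gated barcodes against 20.2 CPM in the others, where 0 UMIs allow up to 7.43 CPM. Of 5 NK receptor ligands compared, Raet1e was higher (11 UMIs in 9 barcodes) and Cd48 lower. Of 35 chemokines, cytokines and growth factors for leukocytes, 5 were higher and 9 lower (median -2.32, which was 0.02 with no condition on Ptprc and Csf1r), and against the endothelial set 0 of 11 were higher and 4 lower. The 5 were Il11, Il34, Mif, Pdgfa and Ptges, of which Pdgfa, a growth factor for fibroblasts, had 19 UMIs in 13 barcodes (47.1 against 5.34 CPM) and Ptges, a prostaglandin E synthase, 11 in 8. Csf1 had 2 UMIs, Ccl2 10 in 6 barcodes, Vegfa 9 in 6, and Csf2, Csf3, Cxcl5, Cxcl12 and Il6 had 0. Lcn2 was lower (29.7 against 503 CPM). Of 21 death receptor and apoptosis genes, 2 were higher, Birc5 and Serpinb6a, and 6 lower, with Mcl1 at 81.7 against 554 CPM and Fas at 2 UMIs. Serpinb6a, an inhibitor of serine proteases, had a UMI in 66 barcodes (523 against 33.5 CPM). Of 11 complement genes 0 were higher and 1 lower. Of 8 genes known as sources of MC38 neoantigens 0 were higher or lower: Aatf was at 61.9 CPM, a log2 ratio of 1.43, and Reps1 had 7 UMIs.

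Stress genes differed by class. Of 20 chaperone genes 4 were higher and 1 lower (median -0.08). The cytosolic chaperones Hsp90ab1 (7661 against 1334 CPM) and Hsp90aa1 (1999 against 338 CPM) had a UMI in 108 and 96 barcodes. Dnajb1 was higher too, but 95 of its 132 UMIs were in 1 barcode. Xbp1, a factor of the unfolded protein response and of plasma cells, was lower. Of 17 immediate-early genes 8 were lower and 0 higher (median -2.15), with Fos at 12.4 against 207 CPM and Junb at 47.1 against 357 CPM. Against the endothelial set, 8 of 14 were lower and 0 higher, where 15.4% of all genes were lower. Against the hepatocyte set 2 of 13 were lower and 2 higher, where 14.2% and 11% of all genes were. Of the 13 mitochondrial genes, whose summed share the gate limits, 0 were higher or lower.

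Markers of other cells were counted in the gated barcodes. Of 8 endothelial markers 6 were at 0 (Clec4g, Stab2, Kdr, Cdh5, Ptprb and Oit3), and of 5 smooth muscle markers 4 were (Acta2, Tagln, Myh11 and Cnn1). Of 9 stellate cell and fibroblast markers Lrat, Reln and Lum were at 0, Dcn (decorin) had 25 UMIs in 14 barcodes, Col3a1 and Rgs5 6 each, and Pdgfrb and Des 2 each. This list was at 104 CPM in the gated against 5.43 CPM in the other barcodes, with a UMI in 16.5% against 2.10%. Its part in the matrix and mesenchymal counts was not tested. Of 6 mesothelial markers 5 were at 0, with 4 UMIs of Msln, and of 6 bile duct markers 4 were at 0. NK cell, plasmacytoid dendritic cell and mast cell or basophil markers had 0 UMIs in all. T cell, B cell and plasma cell markers had 17, 31 and 10 UMIs, conventional dendritic cell markers 1, Kupffer cell markers 6, neutrophil markers 29 and platelet markers 17. Monocyte and macrophage markers had 134 UMIs in 73 barcodes (332 CPM), against 16046 CPM in the other barcodes. Hepatocyte markers had a UMI in 98 barcodes (89.9%), against 94.0% of the other barcodes, and took a median of 0.0853% of UMIs against 0.117%. Hemoglobin and other erythroid genes had 1579 UMIs, of which 1522 were in 1 barcode, where they were 15.4% of its UMIs. Of the 4 markers behind the label, 3 chose the barcodes and Bgn did not, and stellate cell and fibroblast markers were above the other barcodes while most endothelial and smooth muscle markers were at 0. Whether these cells descend from MC38 was not tested.

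The gated barcodes differed among themselves. Clustered alone without the gate genes they fell into 5 subclusters of 31, 27, 21, 19 and 11 barcodes, described here by genes that the clustering used. Subcluster 1 (31 barcodes, median 2692 UMIs) was led by Odc1, Cryab and Dpysl3, with Bgn at 986 CPM, and it holds the barcode rich in hemoglobin. Subcluster 2 (27 barcodes) was the shallowest, at a median of 1418 UMIs. In subcluster 3 (21 barcodes) cell cycle genes took a median of 0.693% of UMIs, against 0.323% to 0.455% in the other subclusters, and Birc5 was among the leading genes. Subcluster 4 (19 barcodes) was the deepest, at a median of 4499 UMIs, and was led by Fabp4 (32 of 33 UMIs, in 2 barcodes), Phlda1, Dnajb1 and Hsp90b1, with H2-K1 at 724 CPM against 180 CPM in the rest. Subcluster 5 (11 barcodes) was led by Arg1, Ttc36, Trf and Ttr, genes of hepatocytes. Hepatocyte markers were at 12576 CPM there, against 197 to 1665 CPM in the other subclusters, Bgn had 0 UMIs, and 3 of the 5 doublet calls fell in it. Whether depth or RNA of other cells sets these subclusters was not tested.

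**Figure D5:**
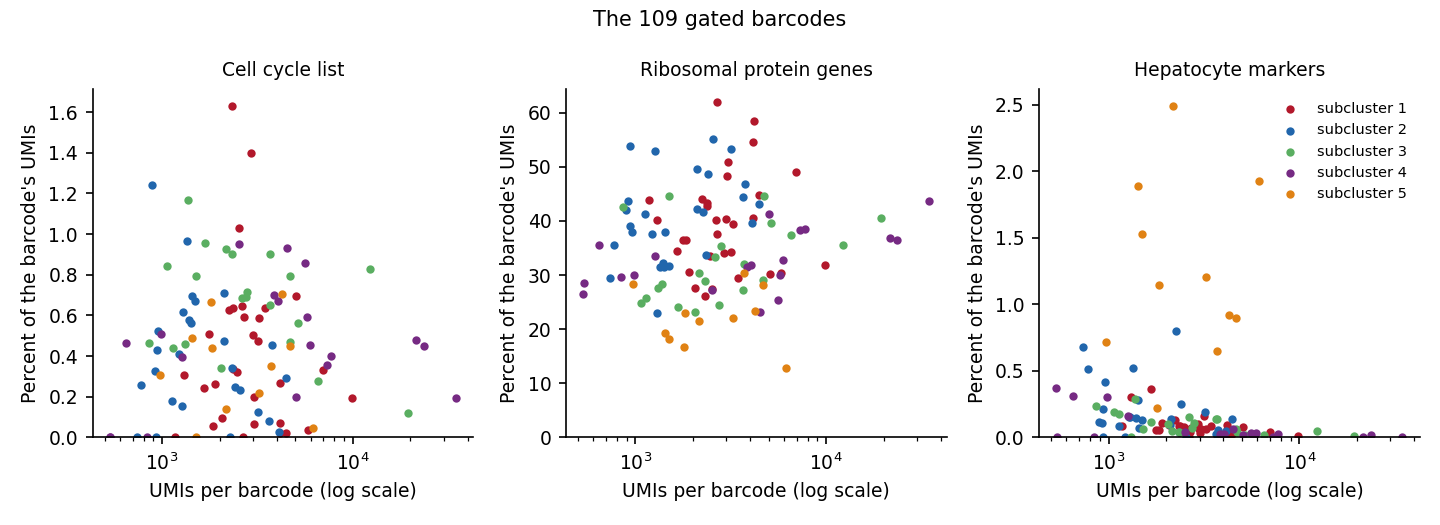
Each point is 1 of the 109 gated barcodes, with its UMIs on the horizontal axis (log scale) and the percent of its UMIs from the cell cycle list (left), ribosomal protein genes (middle) and hepatocyte markers (right), colored by subcluster. Hepatocyte markers reach 2.49% in subcluster 5, and ribosomal protein genes run from 12.8% to 61.9%.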

How the data were processed

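The authors deposited UMI counts, per the file headers as 1 sparse matrix for each of the 2 libraries, with 28692 genes. Tools listed in the submitters' processing notes are bcl2fastq, STAR, Cell Ranger 2.2, R 3.6.0 and Seurat 2.3.4, with the build GRCm38.p6; the matrix header gives software version 3.0.2. Their roles and settings are not stated there.

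The gate, gene lists, marker lists and comparisons were chosen with earlier results of these data known. Of kept barcodes, at least 200 genes and no more than 20% mitochondrial UMIs (13 genes) were asked. The comparison sets needed at least 3 UMIs of Clec4g, Stab2, Kdr, Cdh5 and Ptprb (endothelial), hepatocyte markers of at least 5% of UMIs, or at least 2 UMIs each of Csf1r and Lyz2 (macrophage); T and B cell barcodes had at least 3 UMIs of Cd3e, Cd3d, Cd3g and Trac or of Cd79a, Cd79b and Ms4a1. Ratios have exact conditional Poisson intervals and shares Clopper-Pearson intervals, both at 95%. A side at 0 was set to 3 counts over the set, as a bound. The median over genes of at least 10 CPM was chosen after the data were seen, because genes at 0 had uninformative bounds. Genes named were the 25 leading genes (at least 100 CPM, a UMI in at least 25% of gated barcodes, no ribosomal, mitochondrial, hemoglobin, antigen receptor or unnamed-model genes), the 5 most tied to the gate, and of each of 26 lists the 3 highest and 2 lowest members of at least 10 CPM and defining genes; others named, such as Col6a3, were chosen after their values were seen. The 18 marker lists of other cells were counted whole. Doublets were called with scrublet (scanpy 1.11.5) and kept. Clusters came from Leiden on shared-neighbour graphs (igraph 0.11.9). Thinning drew 1000 UMIs per barcode. Python 3.11.15, numpy 2.4.6, scipy 1.17.1 and pandas 2.3.3 were used, and the ratio and call code was tested on simulated data. A symbol shared by several gene IDs went to the one with the highest count. Gene positions are GENCODE M21. Of the 25 leading genes, 19 matched the RefSeq promoter table by symbol. Krt14 had an entry that no annotated start lies near and was left out.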

Additional observations from a re-analysis of the deposited data

Results flagged for a closer look

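Some MC38 barcodes outside the gate carried its genes above the control library. The first were 46 kept barcodes with a gate sum of 2 or more and a UMI of Ptprc or Csf1r, against 1 in the control library. Their median was 10176 UMIs, against 2475 in the gated barcodes, and 3 of them were called doublets. The 7 of them with a sum of 6 or more had the 25 leading genes at 10209 CPM and monocyte or macrophage markers at 2473 CPM, and the 23 with a sum of 2 had 1715 and 16697 CPM. The second were 18 barcodes with a gate sum of 2 or more, without Ptprc and Csf1r, that failed the limit on genes or on mitochondrial UMIs, against 0 in the control library.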

How the results depend on the processing

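No paired analysis was possible because each group has 1 library. The number of gated barcodes, 109 (0.629%), was 54 (0.880%) with a mitochondrial limit of 5%, 49 (0.445%) with at least 1000 genes, 60 (0.346%) with a gate sum of at least 3, 33 (0.190%) with at least 5, 57 (0.329%) for the gate without Tnnt2, and 242 for the library cluster. The share was 0.496% for the gate without Hmga2, 0.461% without Krt14, and 0.894% with no condition on Ptprc and Csf1r, where the control library had 1 barcode and 383 genes were lower. Of the genes, 484 were higher and 490 lower with barcodes thinned to 1000 UMIs, where fewer UMIs were compared, 2455 were lower with ratios centred on the median, and 1615 were higher and 2702 lower at 2-fold. Of the genes called, Spp1 changed sign to a log2 ratio of 2.32 with no condition on Ptprc and Csf1r, which adds barcodes with macrophage RNA, and Inhba to -0.12 without the 10 deepest gated barcodes. Over 24 alternatives, 2467 of 3049 log2 ratios of 128 named genes and 513 of 599 list medians stayed inside the interval of the reported value. The alternatives on the minimum UMIs per gene and on 2-fold calls do not alter a gene's ratio, so part of the 2467 could not move. For a list, the interval is the median of its members' lower ends and of their upper ends. The medians of the matrix, mesenchymal, cell cycle, MHC class I, MHC class II and interferon lists kept their sign under all alternatives, at 2.43 to 5.44, 0.90 to 2.83, 1.89 to 3.33, -2.80 to -0.48, -6.04 to -1.27 and -3.93 to -0.97. Called or not, 49 of the gene ratios and 38 of the list medians changed sign. The intestinal (0.50 to -2.08), glycolysis, NK ligand, chemokine, growth factor receptor, chaperone and neoantigen lists did so under at least 1 alternative. The 5 alternatives on deepest barcodes, hepatocyte-rich barcodes, the sum-0 comparison and the total were chosen after seeing the data. Depth limits genes at 0 in the 109 barcodes to an upper bound of 7.43 CPM.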
